A study of Mus musculus with 3 samples.

Results

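The photoreceptor ribbon synapse genes are 31 named genes of the cone terminal, taken by symbol from a count table of 31053 genes, and all 31 were found in it. They were chosen by name and fall into ribbon and active zone genes (8), genes of the calcium channel complex (4), genes of synaptic vesicles and release (12), and scaffold and trans-synaptic adhesion genes (7). They were followed in single GFP-positive cells sorted as cones from mouse retina labelled postnatal day 12, with 3 lines on 1 plate each, which makes 1 library a line. The Pde6ccpfl1 line carries a mutant allele of Pde6c, the catalytic subunit of cone phosphodiesterase, and its library is named Pde6c-GFP. The Cnga3-/- line is labelled a knockout of Cnga3, part of the cone channel that cGMP opens, and its library is named Cnga3-GFP. The wildtype library is named Chrnb4-GFP, after the reporter whose Chrnb4 regulatory sequence drives GFP in cones. The labels do not say whether the mutant lines carry the same reporter, nor how many animals went into a plate. A tag in the well names is not the same on each plate, and the labels do not explain it. If it is an age, age and genotype cannot be told apart, and genotype and plate cannot be told apart in any case.

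A cone has no action potential at its terminal. It holds glutamate release high in darkness, through an L-type calcium channel that is opened by the dark potential, and a plate-like ribbon that tethers vesicles above the release site. Light lowers release, and bipolar and horizontal cell processes that invaginate into the terminal read the change. The outer segment protein that each mutant line lacks or alters acts upstream of this terminal, in the light response.

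Of 208 wells, 183 were kept, those in which at least 500 genes were counted and mitochondrially encoded genes took no more than 30% of the counts: 61 of 71 in Pde6ccpfl1, 70 of 76 in Cnga3-/- and 52 of 61 in wildtype. Kept wells summed to 295011 counts in Pde6ccpfl1, 335499 in Cnga3-/- and 273080 in wildtype, with medians per well of 3796, 4056.5 and 4895 in that order of libraries. The mutated genes were counted as follows: Cnga3 had 3 counts in Pde6ccpfl1, 13 in Cnga3-/- and 22 in wildtype, and Pde6c had 2, 5 and 0 counts in that order. Cnga3 was thus still counted in its own knockout library, and a count per gene does not show which part of the transcript it comes from, so these counts do not check the alleles. Levels are given as CPM, which are counts scaled to the library total. Intervals are 95% and cover counting error only. With 1 library per genotype the wells are not replicates, so no test was made and every difference below is between these libraries. The sorted cell type was checked on markers, and 12 cone marker genes summed to 229 counts in Pde6ccpfl1, 267 in Cnga3-/- and 51 in wildtype, where Opn1sw, Gnat2, Gngt2, Pde6c and Cngb3 had no count. In Pde6ccpfl1 only Cngb3 of the 12 had none. The 12 rod markers summed to 204, 285 and 115 counts in the same order of libraries, with none of the 12 at 0 in any. Each of 9 marker lists of other retinal, glial, immune, vessel and pigment epithelial cells summed to between 13 and 122 counts in Pde6ccpfl1, 19 and 112 in Cnga3-/- and 11 and 126 in wildtype. In wildtype the sums of horizontal (126), endothelium and pericyte (63), pigment epithelium (59) and Muller glia markers (56) exceeded the 51 cone marker counts. The lists differ in their number of genes. Marker counts thus do not show that the wildtype wells, the reference of the ratios to wildtype below, were cones. The part of the marker differences in the results below was not tested.

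Start-site windows from RefSeq (build GRCm38.p6, 250 bases before to 50 after each start) are shown for the members with the highest levels per length that the table holds, since these are the members best measured here. The motif searched was TAATCC, the core of the sequence bound by the photoreceptor homeobox factor CRX, on both strands, so GGATTA on the printed strand is a match too; capitals mark it. Of the 31 members 25 were in the table, with 38 windows. Rims2, Snap25, Cplx4, Cacna2d4, Vamp2 and Cabp4 were not matched.
Stx3 (GRCm38.p6, chr19:11819354-11819653, minus strand): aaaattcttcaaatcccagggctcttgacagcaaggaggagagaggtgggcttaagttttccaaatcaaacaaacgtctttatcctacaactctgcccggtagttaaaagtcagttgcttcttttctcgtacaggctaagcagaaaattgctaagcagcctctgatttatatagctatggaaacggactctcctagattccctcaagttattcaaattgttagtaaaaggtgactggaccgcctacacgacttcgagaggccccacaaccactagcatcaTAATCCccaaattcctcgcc
Mpp4 (GRCm38.p6, chr1:59161587-59161886, minus strand): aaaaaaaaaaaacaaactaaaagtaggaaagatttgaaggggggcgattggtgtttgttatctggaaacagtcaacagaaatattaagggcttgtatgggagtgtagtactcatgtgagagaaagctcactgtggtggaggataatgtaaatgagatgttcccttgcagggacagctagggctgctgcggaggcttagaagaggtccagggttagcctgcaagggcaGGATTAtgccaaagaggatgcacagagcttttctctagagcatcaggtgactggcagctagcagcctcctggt
Rims1 (GRCm38.p6, chr1:22806109-22806408, minus strand): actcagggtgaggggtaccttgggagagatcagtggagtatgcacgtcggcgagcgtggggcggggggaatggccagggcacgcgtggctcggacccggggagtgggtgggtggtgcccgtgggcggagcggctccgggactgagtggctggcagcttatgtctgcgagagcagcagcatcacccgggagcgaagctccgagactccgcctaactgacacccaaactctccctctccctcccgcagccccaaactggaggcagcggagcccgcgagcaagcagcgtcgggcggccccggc
Bsn (GRCm38.p6, chr9:108190334-108190633, minus strand): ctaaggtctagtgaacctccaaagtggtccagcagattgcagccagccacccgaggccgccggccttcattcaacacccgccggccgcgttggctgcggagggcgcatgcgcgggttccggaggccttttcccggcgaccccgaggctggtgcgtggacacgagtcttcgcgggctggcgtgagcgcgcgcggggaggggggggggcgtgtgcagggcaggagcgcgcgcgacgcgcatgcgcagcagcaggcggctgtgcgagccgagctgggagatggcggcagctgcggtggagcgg
The motif was in 8 of the 38 member windows (21.1%), which belong to 7 genes, against 2320 of all 32851 windows of this length (7.06%). Stx3 holds it in its window, and Rims1 and Bsn do not. Mpp4 has a pair of windows, of which the one printed holds the motif and the other, at chr1:59163340-59163639, does not. A match in these letters is no evidence of binding, and members with several starts count more than once.

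All 31 members together made up 469 counts in Pde6ccpfl1, 712 in Cnga3-/- and 470 in wildtype. That is 0.159%, 0.212% and 0.172% of the counts of those libraries, or 1590 CPM (1449 to 1740), 2122 CPM (1969 to 2284) and 1721 CPM (1569 to 1884). The summed level was highest in Cnga3-/-, at 1.23 times wildtype (1.10 to 1.39). In wells with at least 1 cone marker count that ratio was 1.02 (0.881 to 1.19), an interval that includes 1. In Pde6ccpfl1 it was 0.924 times wildtype (0.811 to 1.05), an interval that includes 1, and 0.749 times Cnga3-/- (0.665 to 0.843). Counts of every member were found in Cnga3-/- and wildtype, and 30 of 31 in Pde6ccpfl1, where Nsf had none. A kept well held counts of a median of 4 members in Pde6ccpfl1 (range 0 to 11), 5 in Cnga3-/- (0 to 14) and 4 in wildtype (0 to 11). With each well thinned to 1400 counts, which leaves 54, 65 and 48 wells, the means were 1.67, 1.85 and 1.73 members per well.

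A few genes carried the sum. Rims1, Bsn and Cabp4 held 785 of the 1651 counts of the list (47.5%), and 18 of the 31 members had under 30 counts over the 3 libraries. Without Rims1 and Bsn the summed ratio was 1.48 (1.28 to 1.73) for Cnga3-/- over wildtype, 0.946 (0.797 to 1.12) for Pde6ccpfl1 over wildtype and 0.638 (0.549 to 0.741) for Pde6ccpfl1 over Cnga3-/-. By CPM, 18 members were highest in Cnga3-/-, 6 in Pde6ccpfl1 and 7 in wildtype. The same shares over all genes were not taken, here or for the counts of members by CPM in each role below.

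**Figure D1:**
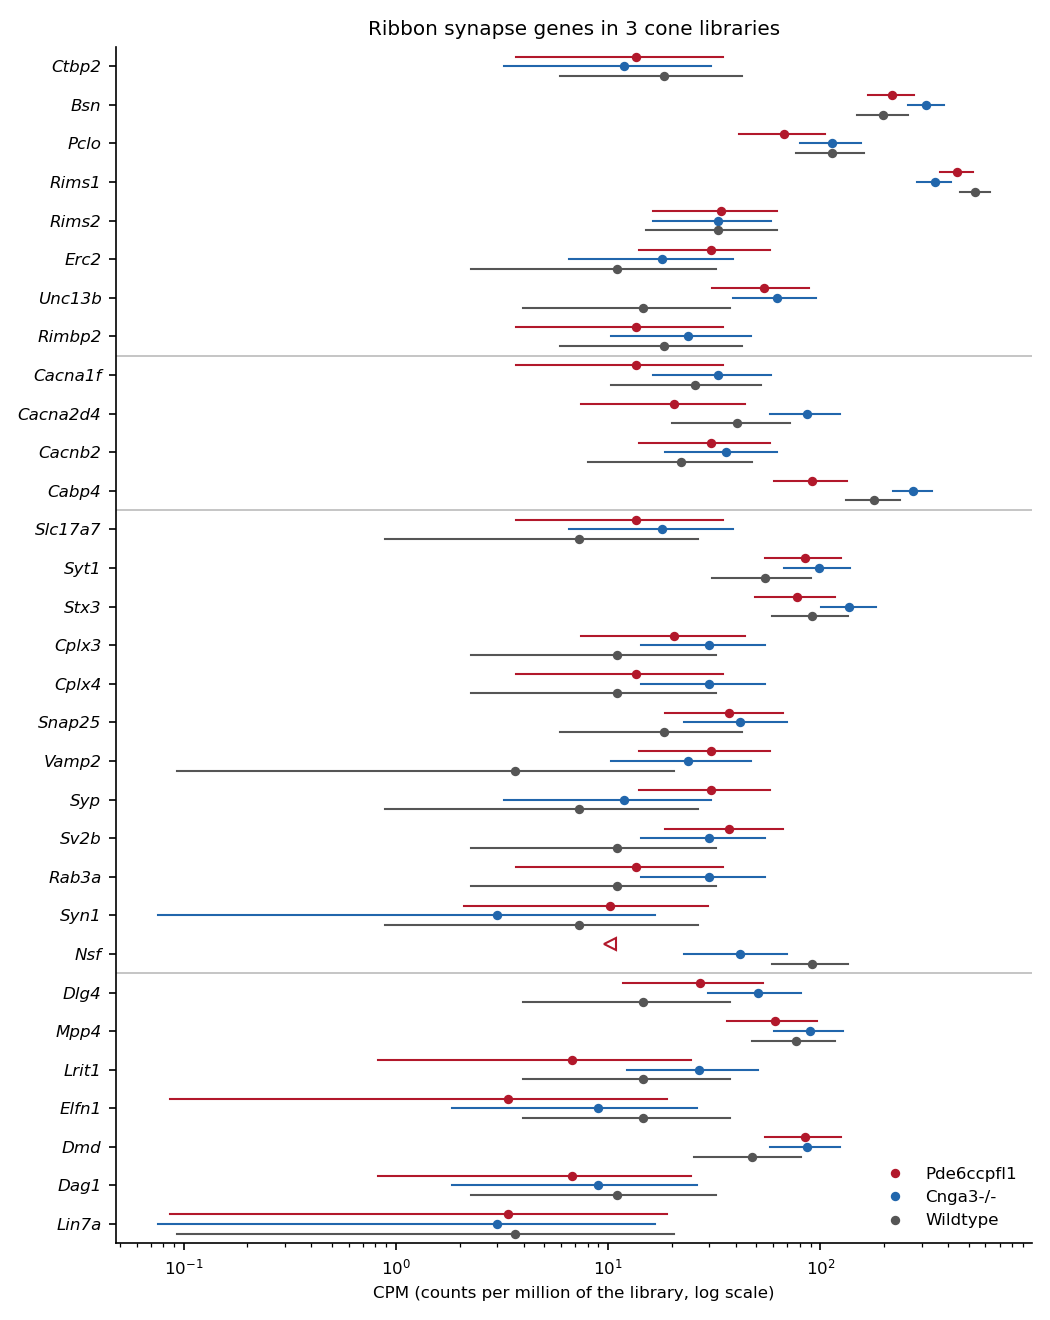
CPM of each member (horizontal axis, log scale) in the Pde6ccpfl1, Cnga3-/- and wildtype libraries, grouped by role with lines between roles. Points are library sums, bars are exact 95% Poisson intervals, and the open triangle is the floor of 3 counts for Nsf in Pde6ccpfl1, which had no count. Rims1 and Bsn lie to the right of the other members in each library, and most intervals of the rarer members overlap between libraries.

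The ribbon and active zone genes build the platform that holds vesicles at the release site, and their sum was close between libraries: 871 CPM (768 to 984) in Pde6ccpfl1, 924 CPM (824 to 1033) in Cnga3-/- and 945 CPM (833 to 1067) in wildtype. The ratio was 0.922 (0.773 to 1.10) for Pde6ccpfl1 over wildtype, 0.978 (0.826 to 1.16) for Cnga3-/- over wildtype and 0.943 (0.796 to 1.12) for Pde6ccpfl1 over Cnga3-/-. In both comparisons with wildtype 4 of the 8 genes had the higher CPM in the mutant line. The Cnga3-/- over wildtype ratio was 1.29 (0.889 to 1.89) with each well thinned to 1400 counts, an interval that includes 1. It was 1.28 (1.06 to 1.56) without the 5 deepest wells of each library, so the even level depends on these wells.

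Rims1 (chromosome 1, 22286251 to 22805994, minus strand), an active zone protein that binds Rab3 and calcium channels, was the most counted member. It had 130 counts (441 CPM) in Pde6ccpfl1, 116 (346 CPM) in Cnga3-/- and 147 (538 CPM) in wildtype. Its ratio was 0.642 (0.499 to 0.825) for Cnga3-/- over wildtype, 0.819 (0.642 to 1.04) for Pde6ccpfl1 over wildtype and 1.27 (0.985 to 1.65) for Pde6ccpfl1 over Cnga3-/-. Without the 5 deepest wells of each library the ratio was 0.888 (0.662 to 1.19) for Cnga3-/- over wildtype, an interval that includes 1, and 1.14 (0.855 to 1.53) for Pde6ccpfl1 over wildtype, on the other side of 1. The order of the libraries in Rims1 thus rests on those wells. It was counted in 38 of 61 Pde6ccpfl1 wells, 40 of 70 Cnga3-/- wells and 38 of 52 wildtype wells.

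Bsn (chromosome 9, 108096022 to 108190384, minus strand) encodes bassoon, the giant scaffold that anchors the ribbon to the membrane. It had 64 counts (217 CPM) in Pde6ccpfl1, 106 (316 CPM) in Cnga3-/- and 54 (198 CPM) in wildtype. Its ratio was 1.60 (1.14 to 2.26) for Cnga3-/- over wildtype, 1.10 (0.752 to 1.61) for Pde6ccpfl1 over wildtype and 0.687 (0.495 to 0.945) for Pde6ccpfl1 over Cnga3-/-. Pclo, the related scaffold piccolo, had 20 counts in Pde6ccpfl1, 38 in Cnga3-/- and 31 in wildtype. Unlike Bsn, it had nearly the same level in Cnga3-/- as in wildtype, a ratio of 0.998 (0.605 to 1.66), and its ratio was 0.597 (0.323 to 1.08) for Pde6ccpfl1 over wildtype. Thinned to 1400 counts a well, the ratio of Bsn was 2.16 (0.851 to 6.16) for Pde6ccpfl1 over wildtype, an interval that includes 1. For Cnga3-/- over wildtype it was 3.38 (1.46 to 9.06).

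Unc13b encodes a Munc13 protein that primes vesicles for fusion. It had 16 counts in Pde6ccpfl1, 21 in Cnga3-/- and 4 in wildtype. These give 3.70 times wildtype (1.19 to 15.2) in Pde6ccpfl1 and 4.27 times wildtype (1.44 to 17.1) in Cnga3-/-, and both intervals are wide because of the 4 wildtype counts. With thinned wells wildtype had no count of it, and Cnga3-/- was at 1.23 times a wildtype floor of 3 counts, with no interval. Rims2, a relative of Rims1, was even, with 10, 11 and 9 counts in Pde6ccpfl1, Cnga3-/- and wildtype.

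Ctbp2 yields the ribbon's main structural protein, ribeye, from an alternative promoter, and also the nuclear corepressor CtBP2, which a count per gene cannot separate. It had 4 counts in Pde6ccpfl1, 4 in Cnga3-/- and 5 in wildtype. Its exons overlap Fgfr2 on the same strand, which had 149 counts in all, so the few counts of Ctbp2 cannot be assigned with certainty. The remaining active zone members were as sparse: Erc2, which binds RIM proteins, had 9, 6 and 3 counts, and Rimbp2, which links RIM to calcium channels, had 4, 8 and 5 counts in the same order of libraries. Rimbp2 exons overlap the antisense gene Gm42875, which had 14 counts in all.

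The calcium channel complex was the role in which the libraries differed most. Its 4 genes summed to 46 counts (156 CPM, 114 to 208) in Pde6ccpfl1, 144 (429 CPM, 362 to 505) in Cnga3-/- and 73 (267 CPM, 210 to 336) in wildtype. The sum in Pde6ccpfl1 was 0.583 times that of wildtype (0.394 to 0.855), the sum in Cnga3-/- was 1.61 times that of wildtype (1.20 to 2.16), and the sum in Pde6ccpfl1 was 0.363 times that of Cnga3-/- (0.255 to 0.510). All 4 genes had a higher CPM in Cnga3-/- than in wildtype, and all 4 had a lower CPM in Pde6ccpfl1 than in Cnga3-/-. For Cacna1f and Cacnb2 both directions rest on few counts, with intervals that include 1. The share of all genes in each direction was not taken. In wells with at least 1 cone marker count, of which wildtype had 20, the Cnga3-/- over wildtype ratio of the sum was 0.839 (0.572 to 1.25) and the Pde6ccpfl1 over Cnga3-/- ratio was 0.566 (0.382 to 0.828).

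**Figure D2:**
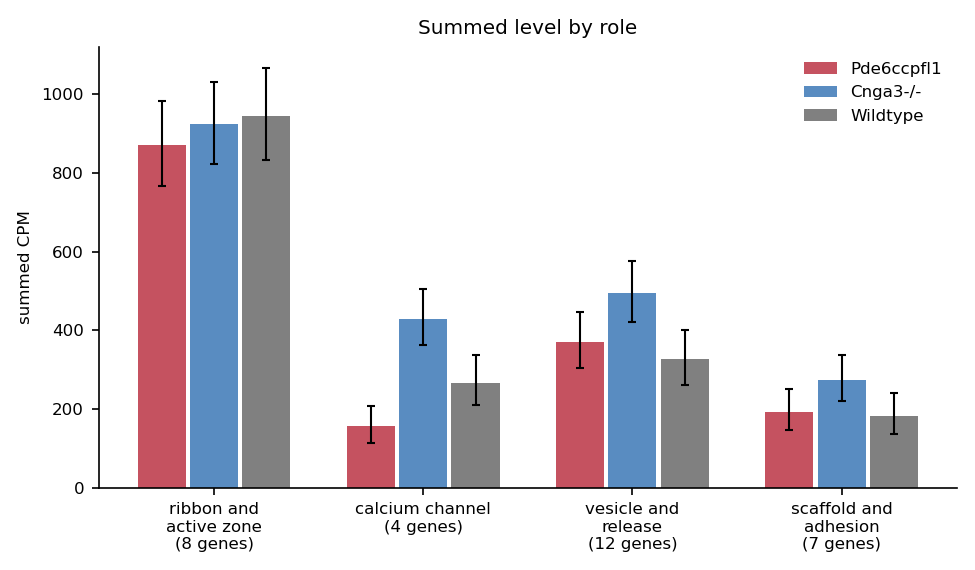
Summed CPM (vertical axis) of the 4 roles in the Pde6ccpfl1, Cnga3-/- and wildtype libraries, with exact 95% Poisson intervals. The ribbon and active zone sums lie between 871 and 945 CPM, while the calcium channel sum is 156 CPM in Pde6ccpfl1, 429 CPM in Cnga3-/- and 267 CPM in wildtype.

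Cabp4 (chromosome 19, 4135423 to 4144033, minus strand), the calcium-binding protein that shifts channel opening toward the dark potential, held most of these counts. It had 27 counts (91.5 CPM) in Pde6ccpfl1, 92 (274 CPM) in Cnga3-/- and 49 (179 CPM) in wildtype, in 16 of 61, 36 of 70 and 27 of 52 wells. Relative to wildtype it was at 0.510 (0.307 to 0.832) in Pde6ccpfl1 and at 1.53 (1.07 to 2.21) in Cnga3-/-, and Pde6ccpfl1 was at 0.334 of Cnga3-/- (0.209 to 0.517), a log2 ratio of -1.58. With thinned wells the Pde6ccpfl1 over wildtype ratio was 0.296 (0.0963 to 0.779). In wells with a cone marker count the Cnga3-/- over wildtype ratio was 0.711 (0.439 to 1.17), on the other side of 1, and the Pde6ccpfl1 over Cnga3-/- ratio 0.584 (0.348 to 0.961). Its exons overlap Gpr152 on the opposite strand, and how strand was treated in counting is not given, but Gpr152 had 4 counts in all.

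Cacna2d4, the auxiliary subunit of the cone channel, ordered the libraries as Cabp4 did, with 6 counts (20.3 CPM) in Pde6ccpfl1, 29 (86.4 CPM) in Cnga3-/- and 11 (40.3 CPM) in wildtype. Its ratio was 0.505 (0.153 to 1.49) for Pde6ccpfl1 over wildtype, 2.15 (1.04 to 4.76) for Cnga3-/- over wildtype and 0.235 (0.0799 to 0.577) for Pde6ccpfl1 over Cnga3-/-. With thinned wells the Cnga3-/- over wildtype ratio was 1.11. Cacna1f, which encodes the pore of the channel, had only 4 counts in Pde6ccpfl1, 11 in Cnga3-/- and 7 in wildtype, and Cacnb2, its beta subunit, had 9, 12 and 6 counts. Each interval of Cacna1f and of Cacnb2 included 1. Without Cabp4 the other 3 genes summed to 19 counts in Pde6ccpfl1, 52 in Cnga3-/- and 24 in wildtype, and Pde6ccpfl1 stood at 0.416 of Cnga3-/- (0.232 to 0.715).

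Vesicle and release genes load glutamate, dock vesicles and fuse them. Their 12 members summed to 109 counts (370 CPM, 303 to 446) in Pde6ccpfl1, 166 (495 CPM, 422 to 576) in Cnga3-/- and 89 (326 CPM, 262 to 401) in wildtype. The ratio was 1.13 (0.849 to 1.52) for Pde6ccpfl1 over wildtype, 1.52 (1.17 to 1.99) for Cnga3-/- over wildtype and 0.747 (0.581 to 0.957) for Pde6ccpfl1 over Cnga3-/-. Nsf, the ATPase that takes spent SNARE complexes apart, was the only member with no count in a library. It had 0 counts in Pde6ccpfl1, 14 in Cnga3-/- and 25 in wildtype. Set against a floor of 3 counts in the Pde6ccpfl1 library, it was 9.00-fold lower there than in wildtype and 4.10-fold lower than in Cnga3-/-. These values do not cover counting error in the other library. In Cnga3-/- Nsf was at 0.456 of wildtype (0.219 to 0.911). With thinned wells it was at 0.123 (0.00268 to 1.01), an interval that includes 1.

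Without Nsf, left out after its values were seen, the other 11 genes summed to 109 counts in Pde6ccpfl1, 152 in Cnga3-/- and 64 in wildtype. Their ratio was 1.58 (1.15 to 2.18) for Pde6ccpfl1 over wildtype, 1.93 (1.43 to 2.63) for Cnga3-/- over wildtype and 0.816 (0.632 to 1.05) for Pde6ccpfl1 over Cnga3-/-. These ratios depend on that choice, since with Nsf the interval for Pde6ccpfl1 over wildtype includes 1. Most single members were too sparse to tell apart. By CPM, 10 of all 12 were higher than wildtype in Pde6ccpfl1 and 10 of 12 in Cnga3-/-, many of them with only 1 to 3 wildtype counts. The share of all genes higher than wildtype was not taken. Cone markers were higher in both mutant libraries, at 4.16 (3.06 to 5.75) times wildtype in Pde6ccpfl1 and 4.26 (3.15 to 5.87) times in Cnga3-/-, and so were rod markers, at 1.64 (1.30 to 2.08) and 2.02 (1.62 to 2.53) times. Thinning gave a ratio of the 12-gene sum of 1.02 (0.600 to 1.76) for Cnga3-/- over wildtype and 1.04 (0.620 to 1.72) for Pde6ccpfl1 over Cnga3-/-.

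Stx3, the syntaxin of ribbon synapses, had 23 counts (78.0 CPM) in Pde6ccpfl1, 46 (137 CPM) in Cnga3-/- and 25 (91.5 CPM) in wildtype. Its ratio was 1.50 (0.901 to 2.54) for Cnga3-/- over wildtype, 0.852 (0.462 to 1.56) for Pde6ccpfl1 over wildtype and 0.569 (0.329 to 0.958) for Pde6ccpfl1 over Cnga3-/-. With thinned wells the ratio was 0.404 (0.110 to 1.26) for Pde6ccpfl1 over wildtype and 0.873 (0.361 to 2.15) for Cnga3-/- over wildtype. Syt1, the calcium sensor of fast release, had 25 counts in Pde6ccpfl1, 33 in Cnga3-/- and 15 in wildtype, with ratios to wildtype of 1.54 (0.782 to 3.15) in Pde6ccpfl1 and 1.79 (0.946 to 3.55) in Cnga3-/-. Snap25, a SNARE of the plasma membrane, had 11, 14 and 5 counts in the same order of libraries.

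The complexins that mark retinal ribbon synapses were rare. Cplx3 had 6 counts in Pde6ccpfl1, 10 in Cnga3-/- and 3 in wildtype. Cplx4 had 4 counts in Pde6ccpfl1, 10 in Cnga3-/- and 3 in wildtype. Slc17a7, the vesicular glutamate transporter of photoreceptors, had 4 counts in Pde6ccpfl1, 6 in Cnga3-/- and 2 in wildtype, so that even the transmitter-loading step was seen in at most 6 wells of a library. Vamp2, the vesicle SNARE, had 9, 8 and 1 counts in that order, and its ratio of 8.33 for Pde6ccpfl1 over wildtype runs from 1.15 to 365 because of the single wildtype count. Syp, Sv2b, Rab3a and Syn1, vesicle proteins, had 3 to 11 counts in Pde6ccpfl1, 1 to 10 in Cnga3-/- and 2 to 3 in wildtype. Syn1, a synapsin of conventional synapses, overlaps Araf on the opposite strand, so its few counts cannot be assigned with certainty.

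Scaffold and trans-synaptic adhesion genes hold the terminal against its bipolar and horizontal partners. Their 7 members summed to 57 counts (193 CPM, 146 to 250) in Pde6ccpfl1, 92 (274 CPM, 221 to 336) in Cnga3-/- and 50 (183 CPM, 136 to 241) in wildtype. The ratio was 1.06 (0.709 to 1.57) for Pde6ccpfl1 over wildtype, 1.50 (1.05 to 2.16) for Cnga3-/- over wildtype and 0.705 (0.497 to 0.991) for Pde6ccpfl1 over Cnga3-/-. The Pde6ccpfl1 over wildtype ratio was 1.70 (0.946 to 3.24) in wells with a cone marker count. Both other intervals include 1 over the 43 plate positions kept in each library, at 1.46 (0.990 to 2.18) for Cnga3-/- over wildtype and 0.677 (0.451 to 1.01) for Pde6ccpfl1 over Cnga3-/-, and without the leading plate position of each member, described below, at 1.48 (0.962 to 2.33) and 0.844 (0.563 to 1.26). Mpp4, a membrane guanylate kinase of photoreceptor terminals, had 18 counts (61.0 CPM) in Pde6ccpfl1, 30 (89.4 CPM) in Cnga3-/- and 21 (76.9 CPM) in wildtype, and its 3 ratios all had intervals that included 1. In wells with a cone marker count its ratio was 1.67 (0.597 to 5.75) for Pde6ccpfl1 over wildtype and 2.16 (0.920 to 5.45) for Pde6ccpfl1 over Cnga3-/-. Both of these intervals include 1 too. Dmd, whose short dystrophins sit beside the ribbon, had 25 counts in Pde6ccpfl1, 29 in Cnga3-/- and 13 in wildtype.

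Dlg4, the scaffold PSD-95, which in the outer retina is found in photoreceptor terminals, had 8 counts in Pde6ccpfl1, 17 in Cnga3-/- and 4 in wildtype, a ratio of 3.46 (1.13 to 14.1) for Cnga3-/- over wildtype. With thinned wells, where wildtype had no count, Cnga3-/- was at 1.23 times a wildtype floor of 3 counts, with no interval. Lrit1 and Elfn1, adhesion proteins of the photoreceptor synapse, had 2, 9 and 4 counts and 1, 3 and 4 counts in the same order of libraries. Dag1, the dystroglycan gene, and Lin7a, a scaffold partner, had at most 3 counts in any library.

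**Figure D3:**
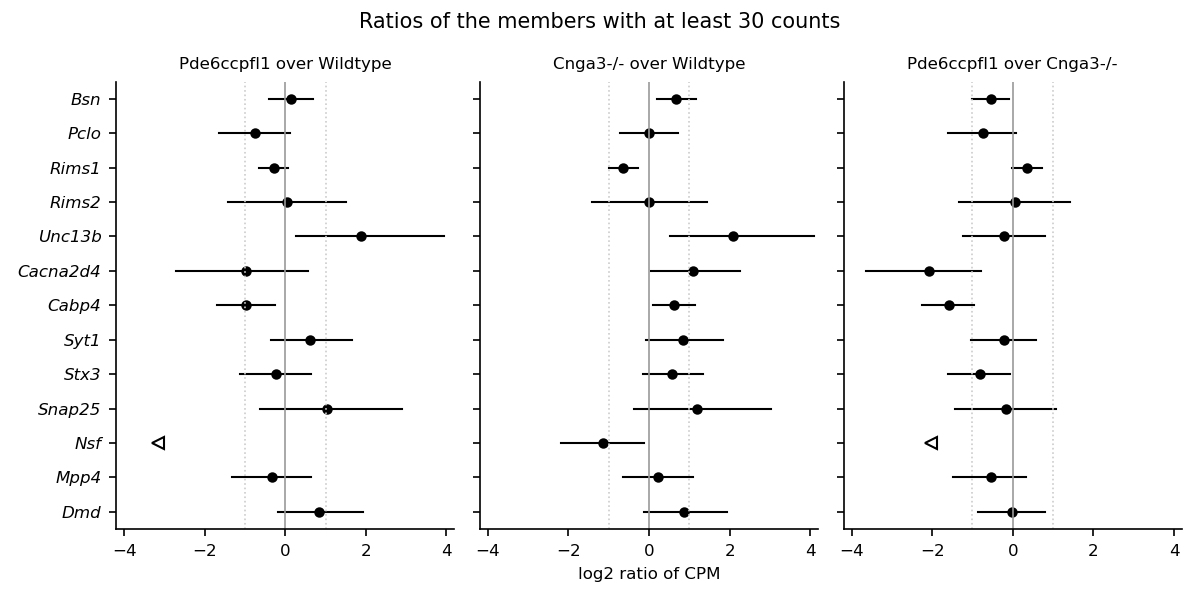
Log2 ratio of CPM (horizontal axis) of the 13 members with at least 30 counts over the 3 libraries, for Pde6ccpfl1 over wildtype, Cnga3-/- over wildtype and Pde6ccpfl1 over Cnga3-/-. Bars are exact 95% intervals of counting error, dotted lines mark 2-fold, and open triangles are Nsf ratios with Pde6ccpfl1 set to the floor of 3 counts. Cabp4 and Cacna2d4 lie furthest left of the points in the comparison of the mutant lines.

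Few members were counted often enough for a count of 2-fold differences. A gene was compared where 2 libraries together held 50 counts or more of it and 20% or more of the wells of either had one. Between Cnga3-/- and wildtype 6 members met this. None was at least 2-fold higher, beside 11.2% of all 1723 compared genes, and none was at least 2-fold lower, beside 11.7%. Their median log2 ratio was 0.40, against -0.32 over all compared genes.

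Between Pde6ccpfl1 and wildtype 4 members were compared, and none was 2-fold higher (10.2% of 1600 genes) or 2-fold lower (15.2%), with a median log2 ratio of -0.52 against -0.16 over all. Between Pde6ccpfl1 and Cnga3-/- 7 were compared: none was 2-fold higher (6.44% of 1693 genes) and 1, Cabp4, was 2-fold lower (9.33%). Their median log2 ratio was -0.54, against 0.07 over all compared genes. The 3 comparisons share libraries and are not independent of each other.

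With a filter of only 10 counts, 22 members were compared between Cnga3-/- and wildtype, of which 8 were 2-fold or more higher (16.1% of 7739 genes) and 1, Nsf, 2-fold or more lower (15.1%). For Pde6ccpfl1 over wildtype 6 of 20 were higher (15.5% of 7289 genes) and 1 was lower (17%). For Pde6ccpfl1 over Cnga3-/- 1 of 26 was higher (10.1% of 7850 genes) and 7 were lower (14.2%). At this filter a 2-fold difference can rest on 10 counts, so these are descriptions of size.

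The counts of a member sat in few wells, and in wells of the same plate position on different plates. Rims1 had 25 counts at position A04 of the Pde6ccpfl1 plate, 38 at A04 of the Cnga3-/- plate and 43 at A04 of the wildtype plate, with C11 next on each plate at 19, 14 and 15 counts. Cabp4 had 7 counts at C03 in Pde6ccpfl1, 39 in Cnga3-/- and 11 in wildtype, its highest count on each plate. The same held for Mpp4 at B02, with 5, 19 and 8 counts, and for Syt1 at A08, with 4, 11 and 3 counts.

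Other members showed the pattern on the plates where the position was kept. Bsn had 21 counts at G04 in Pde6ccpfl1 and 31 in Cnga3-/-, where wildtype had no kept well. Stx3 had 15 counts at B03 in Cnga3-/- and 8 in wildtype, and Pclo 12 and 8 counts at E06, with no kept Pde6ccpfl1 well at either position. In the wells with a count of Bsn, Stx3, Pclo, Cabp4 or Mpp4 the median number was 1 on each plate.

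This is a property of the whole table. Over the 43 positions kept on all 3 plates, 1622 of 2365 genes with at least 10 counts in each library (68.6%) had their most counted well at the same position on all 3 plates, as had 4 of the 8 members that could be looked at. How it arises was not tested.

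**Figure D4:**
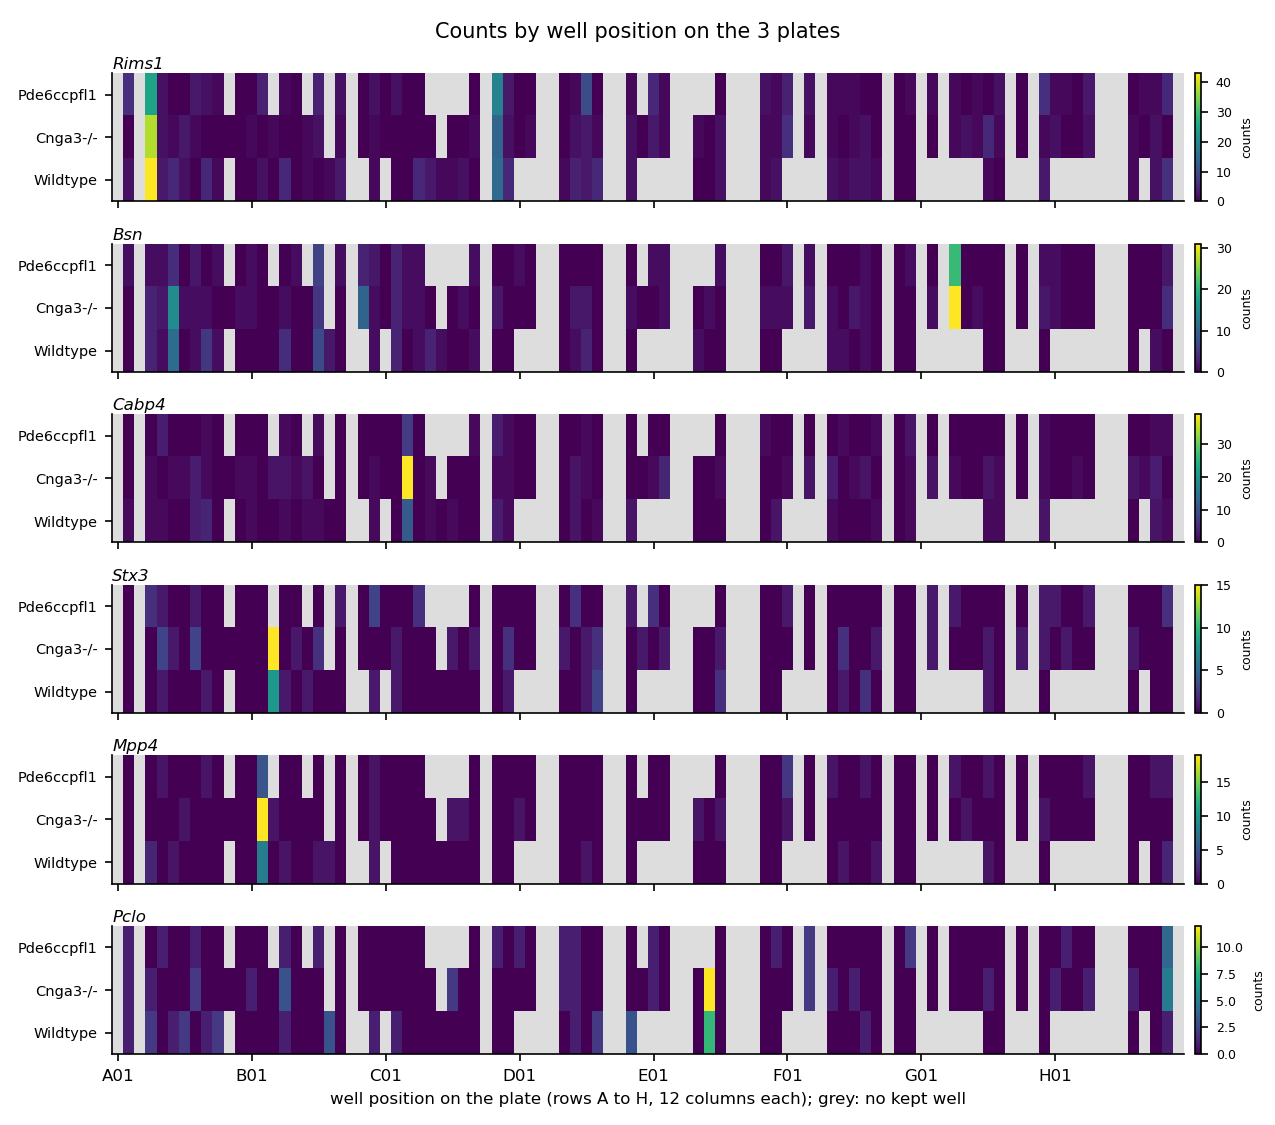
Counts (colour, its own scale for each gene) of 6 members by well position along the plate (horizontal axis, rows A to H) on the Pde6ccpfl1, Cnga3-/- and wildtype plates, with grey where no well was kept. Rims1 is brightest at A04, Cabp4 at C03 and Mpp4 at B02 on each of the plates, and Bsn is brightest at G04 on both plates that hold that well.

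Differences between libraries were therefore also taken without the leading position of each member. The Pde6ccpfl1 over wildtype ratio of Bsn was then 0.737 (0.482 to 1.12). Its Cnga3-/- over wildtype ratio was 1.13 (0.786 to 1.63) and that of Cabp4 1.14 (0.734 to 1.77), so that neither interval left out 1 any longer. Rims1 was at 0.610 (0.449 to 0.827) for Cnga3-/- over wildtype, an interval below 1 here but not without the 5 deepest wells, as given above. Cabp4 kept its lower level in Pde6ccpfl1 than in Cnga3-/-, at 0.429 (0.243 to 0.730). Stx3 had 23 counts in Pde6ccpfl1, 31 in Cnga3-/- and 17 in wildtype outside B03, where the Pde6ccpfl1 plate had no kept well. By CPM Stx3 was then above wildtype in Pde6ccpfl1, the other way than with that position. Nsf had 0 counts in Pde6ccpfl1, 14 in Cnga3-/- and 13 in wildtype outside its leading position C05, where 12 of its 25 wildtype counts lay and where the Pde6ccpfl1 plate had no kept well. Set against the floor in the Pde6ccpfl1 library, Nsf was then 4.68-fold lower there than in wildtype. This value does not cover counting error in the wildtype counts. The Cnga3-/- over wildtype ratio of Nsf was then 0.877 (0.382 to 2.03).

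Unc13b, with 6 and 7 of its counts at E01 in Pde6ccpfl1 and Cnga3-/- and no kept wildtype well there, had intervals that include 1 without that position, at 2.31 (0.667 to 10.1) and 2.85 (0.895 to 11.9) times wildtype. Summed over the calcium channel genes, the ratio was 0.651 (0.418 to 1.005) for Pde6ccpfl1 over wildtype, 1.40 (0.992 to 2.00) for Cnga3-/- over wildtype and 0.465 (0.310 to 0.685) for Pde6ccpfl1 over Cnga3-/-. Over the 43 shared positions the sum was at 0.762 (0.510 to 1.13) for Pde6ccpfl1 over wildtype and again lower in Pde6ccpfl1 than in Cnga3-/-, at 0.471 (0.325 to 0.673). Cacna2d4 alone was there at 0.452 (0.142 to 1.25) for Pde6ccpfl1 over Cnga3-/-, with 6 counts in Pde6ccpfl1, 14 in Cnga3-/- and 5 in wildtype. Outside its leading position B03, where the Pde6ccpfl1 plate had no kept well, it had 6, 20 and 6 counts in that order. Its lower level in Pde6ccpfl1 than in wildtype thus rests on that position.

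Levels of the members were set beside olfactory receptor genes, which serve smell and have no known role in the cone terminal. Per kilobase of exon the list stood at 6.05 CPM per kilobase (5.51 to 6.62) in Pde6ccpfl1, 8.08 (7.49 to 8.69) in Cnga3-/- and 6.55 (5.97 to 7.17) in wildtype. The 1092 olfactory receptor genes stood at 4.14, 3.60 and 4.47 in the same order of libraries, so the list was at 1.46, 2.25 and 1.46 times their level. Without Rims1 and Bsn these became 0.939 (0.832 to 1.06), 1.70 (1.55 to 1.85) and 0.919 (0.813 to 1.04). In Pde6ccpfl1 and wildtype these intervals include 1. Per kilobase of exon the other 29 members together were thus not told apart there from the olfactory receptor genes. With no scaling to length the whole list, Rims1 and Bsn included, was at 3.85, 5.92 and 3.86 times the olfactory level in the same order. The comparison with no scaling to length was not made for the 29 members alone. By role, again per kilobase, the calcium channel genes stood at 1.07 (0.780 to 1.42) times the olfactory level in Pde6ccpfl1. They stood at 3.38 (2.85 to 3.98) times it in Cnga3-/- and 1.69 (1.33 to 2.13) times it in wildtype. Cone markers stood at 5.19, 6.13 and 1.16 (0.861 to 1.52) times that level in the same order.

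By gene, over the 3 libraries, 14 of 31 members lay above the pooled olfactory level of 4.04 CPM per kilobase and 17 at or below it. The median of single olfactory receptor genes was far under that pooled level, at 0.765, and the lowest member, Lin7a, was above this median at 1.00. Only 5 members lay above the 95th percentile of single olfactory receptor genes, which was 9.75: Rims1 at 59.1 CPM per kilobase, Cabp4 at 52.8, Stx3 at 18.2, Bsn at 15.6 and Mpp4 at 10.8. Cplx4 and Syt1, at 9.69 each, were just under it. Ctbp2, Cacna1f and Slc17a7, which define the ribbon, its channel and its transmitter, were below the pooled level at 2.31, 2.68 and 2.46. The value of Ctbp2 has the limit of the exon overlap given above. Long genes gathered more counts, with a Spearman correlation of 0.545 between counts and exon bases over the 31 members, a description across genes that share the same libraries.

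**Figure D5:**
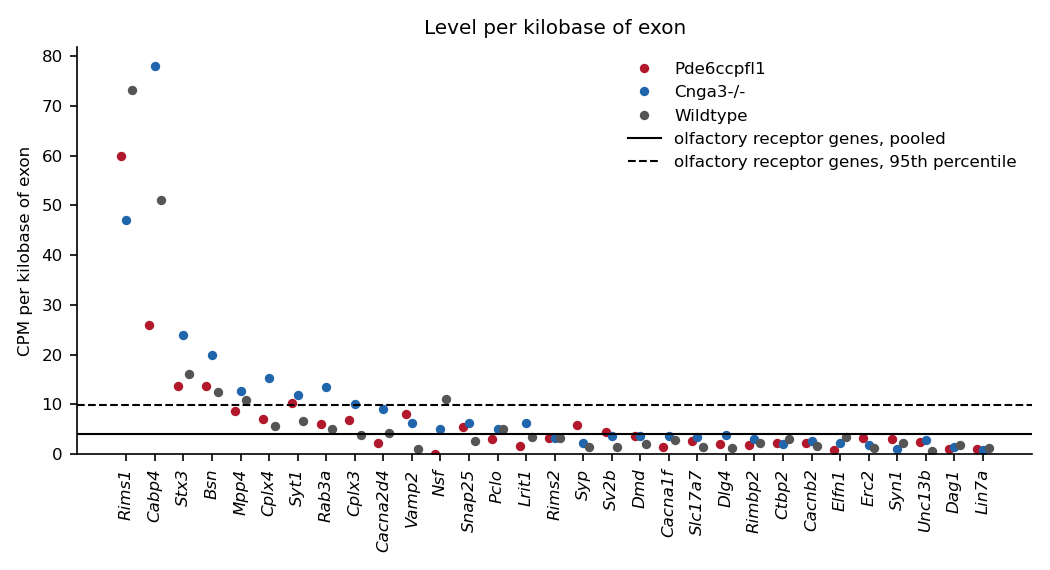
CPM per kilobase of exon (vertical axis) of the 31 members, in falling order over the 3 libraries, for Pde6ccpfl1, Cnga3-/- and wildtype. The solid line is the pooled level of 1092 olfactory receptor genes (4.04) and the dashed line the 95th percentile of these genes taken singly (9.75). Rims1 and Cabp4 stand apart from the other members in each library.

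Relatives of the members in the same terminal were read from wider lists, with the same rule for a compared gene. The alternatives for plate positions, depth and cone marker wells were run on the members only, not on these genes. The 22 other active zone genes summed to 626 counts in Pde6ccpfl1, 623 in Cnga3-/- and 620 in wildtype, a ratio of 0.935 (0.835 to 1.05) for Pde6ccpfl1 over wildtype, 0.818 (0.731 to 0.916) for Cnga3-/- over wildtype and 1.14 (1.02 to 1.28) for Pde6ccpfl1 over Cnga3-/-. Of these genes 7 were compared between Pde6ccpfl1 and wildtype and 6 in each other comparison, and 1 was 2-fold apart. That gene, the RIM relative Rims4, had 213 counts in Pde6ccpfl1, 118 in Cnga3-/- and 161 in wildtype, 2.05 (1.63 to 2.59) times Cnga3-/- in Pde6ccpfl1. It was 1 of 6 compared there, beside 6.44% of all compared genes at least 2-fold higher.

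The 18 other calcium channel and calcium handling genes held more counts than the channel members, 1280 in Pde6ccpfl1, 2263 in Cnga3-/- and 1646 in wildtype. The list ratio was 0.720 (0.669 to 0.775) for Pde6ccpfl1 over wildtype, 1.12 (1.05 to 1.19) for Cnga3-/- over wildtype and 0.643 (0.600 to 0.689) for Pde6ccpfl1 over Cnga3-/-. Of 7 compared between Pde6ccpfl1 and wildtype 1 was 2-fold higher (10.2% of all compared genes) and 2 were lower (15.2%). Of 8 between Cnga3-/- and wildtype 1 was higher (11.2%) and 1 lower (11.7%), which is about the share over all genes. Of 7 between Pde6ccpfl1 and Cnga3-/- 1 was higher (6.44%) and 2 were lower (9.33%). Cacna1a, the P/Q-type pore gene, had 553 counts in Pde6ccpfl1, 1524 in Cnga3-/- and 1257 in wildtype. Its level in Pde6ccpfl1 was 0.407 of wildtype (0.368 to 0.450) and 0.413 of Cnga3-/- (0.374 to 0.455), so it shared with Cabp4 a low level in Pde6ccpfl1. Cacnb1, a beta subunit gene, was also lower there, with 36 counts against 90 in Cnga3-/- and 68 in wildtype. The relative of Cabp4 named Cabp1 went another way, with 420 counts in Pde6ccpfl1, 381 in Cnga3-/- and 60 in wildtype, or 6.48 (4.93 to 8.64) and 5.17 (3.93 to 6.90) times wildtype in the mutant lines. Cacna1b, an N-type pore gene, had 65 counts in Pde6ccpfl1, 28 in Cnga3-/- and 56 in wildtype. Without Cacna1a and Cabp1, left out after their values were seen, the ratio was 0.864 (0.737 to 1.01) for Pde6ccpfl1 over wildtype, 0.886 (0.760 to 1.03) for Cnga3-/- over wildtype and 0.975 (0.835 to 1.14) for Pde6ccpfl1 over Cnga3-/-.

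The 32 other vesicle and release genes summed to 349 counts in Pde6ccpfl1, 468 in Cnga3-/- and 394 in wildtype, and 4 were compared in each comparison. The only one 2-fold apart was Napa, the adaptor that recruits the ATPase Nsf to SNARE complexes, with 35 counts in Pde6ccpfl1, 95 in Cnga3-/- and 100 in wildtype. Over all compared genes 15.2% were at least 2-fold lower in Pde6ccpfl1 than in wildtype and 9.33% than in Cnga3-/-. Its ratio was 0.324 (0.214 to 0.480) for Pde6ccpfl1 over wildtype and 0.419 (0.276 to 0.623) for Pde6ccpfl1 over Cnga3-/-, so Napa was lowest in the library in which Nsf had no count.

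The 18 endocytosis genes had 160 counts in Pde6ccpfl1, 196 in Cnga3-/- and 159 in wildtype, and none of the compared ones (2 between Cnga3-/- and wildtype and 1 in each other comparison) was 2-fold apart. The 23 other scaffold and adhesion genes had 370 counts in Pde6ccpfl1, 432 in Cnga3-/- and 339 in wildtype. Of 3 to 5 compared, 1 was 2-fold apart, the adhesion phosphatase gene Ptprs, with 53 counts in Pde6ccpfl1, 44 in Cnga3-/- and 21 in wildtype, 2.34 (1.39 to 4.08) times wildtype in Pde6ccpfl1. It was 1 of 3 compared there, beside 10.2% of all compared genes at least 2-fold higher. The 15 genes of the bipolar cell side of the synapse, of which Gnb3 is also a cone marker, had 311 counts in Pde6ccpfl1, 280 in Cnga3-/- and 262 in wildtype, and Nyx, the 1 gene compared, was not 2-fold apart.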

How the data were processed

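Per the labels, GFP-positive cells were sorted singly into a 96-well plate for each line and libraries followed a modified SMARTseq2 and MARS-seq procedure. The authors deposited raw counts per gene and well. The submitters' processing notes name featureCounts, with no version, and the build GRCh38, which is human, although 30464 of 31053 gene names (98.1%) are in the mouse GENCODE M21 annotation of GRCm38. The aligner and the treatment of molecular identifiers and strand are not given in the sources used here, so a count may not be an independent molecule. The members and lists were chosen with earlier results of these data known.

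Of 208 wells, 25 were left out (10 Pde6ccpfl1, 6 Cnga3-/- and 9 wildtype) by the minimum of 500 genes and the limit of 30% mitochondrially encoded counts. No doublet caller was run on these single-cell sorts. Counts were summed per library and scaled to CPM, and ratios have exact intervals conditional on the total count. The intervals were checked on simulated Poisson counts, the model that they assume. That check cannot show their coverage where counts gather in few wells. A library with 0 counts was set to 3 counts, and the ratio so given does not cover counting error in the other library. Shares of wells used a thinning to 1400 counts. CPM per kilobase used the union of GENCODE M21 exons. Given in full were the members with at least 30 counts and those that define the terminal; other members given singly, such as Vamp2 and Dlg4, were picked after their values were seen. Named were, from the wider lists, up to 2 genes each way per list and comparison among compared genes at least 2-fold apart. Python 3.11.15, numpy 2.4.6, pandas 2.3.3 and scipy 1.17.1 were used, and TMM factors came from edgeR 4.0.16 in R 4.3.3. The alternatives were other filters on wells and genes, other scalings (mean CPM over wells, median-of-ratios, TMM, a total that leaves out mitochondrially encoded genes and the top 20 by abundance), thinning, leaving out the 5 deepest wells of each library, and wells with a cone marker count. Added after the data were seen were the shared plate positions and leaving out each member's leading position, and the same alternatives for roles and members.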

Additional observations from a re-analysis of the deposited data

Results flagged for a closer look

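The wells left out of every comparison also held member counts, above the limit of 3 counts that a count of 0 allows. The 10 Pde6ccpfl1 wells held 27 of 8245 counts (3275 CPM), the 6 Cnga3-/- wells 17 of 4749 (3580 CPM) and the 9 wildtype wells 18 of 7174 (2509 CPM). These levels exceed those of the kept wells in each library, and they rest on few counts.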

How the results depend on the processing

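No paired analysis was possible because each genotype is 1 library. The depth of 46 to 310 counts per role limits the precision, and 18 members had under 30 counts. Where a value moved, the cause was not tested.

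The Cnga3-/- over wildtype ratio of the list (1.23) was 1.44 with median-of-ratios factors, 1.40 without the 5 deepest wells of each library, 1.02 (0.881 to 1.19) in wells with a cone marker count (20 in wildtype) and 1.48 without Rims1 and Bsn. With median-of-ratios factors the median log2 ratio of all compared genes in that comparison was -0.10 instead of -0.32. The Pde6ccpfl1 over wildtype ratio (0.924) was 1.08 without the 5 deepest wells. The Pde6ccpfl1 over Cnga3-/- ratio (0.749) was 0.638 without Rims1 and Bsn and 0.876 (0.764 to 1.003) without the leading plate positions. In the other settings tried these 3 ratios lay within their intervals.

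Members at least 2-fold apart numbered 0 of 6 compared between Cnga3-/- and wildtype. The number was 2 of 4 with the stricter well filter, 1 of 5 without the 5 deepest wells and 9 of 22 with a filter of 10 counts. Between Pde6ccpfl1 and wildtype they numbered 0 of 4. The number was 1 of 3 with the stricter well filter, in wells with a cone marker count or without the leading positions. It was 1 of 4 with the mean CPM over wells and 7 of 20 with a filter of 10 counts. Between Pde6ccpfl1 and Cnga3-/- they numbered 1 of 7. Thinning left no member to compare, a filter of 200 counts gave 0 of 1 and wells with a cone marker count 0 of 7. The mean CPM over wells gave 2 of 7 and a filter of 10 counts 8 of 26. Apart from the filter of 10 counts, given above, shares over all genes were not taken in these settings.

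The level per kilobase over olfactory receptor genes was 0.939 in Pde6ccpfl1, 1.70 in Cnga3-/- and 0.919 in wildtype without Rims1 and Bsn, and 3.85, 5.92 and 3.86 with no scaling to length. In wells with a cone marker count the Cnga3-/- over wildtype ratio crossed 1 for the calcium channel genes (0.839), for Cabp4 among them (0.711) and for Vamp2 (0.859, against the floor of 3 counts in wildtype). With thinning it crossed 1 for Cplx3 (0.738), Stx3 (0.873) and Dmd (0.738), as did Sv2b in Pde6ccpfl1 over wildtype (0.889) and, in Pde6ccpfl1 over Cnga3-/-, the vesicle and release genes (1.04) and Rab3a (1.20); Cplx3, Sv2b and Rab3a then rest on few counts. Without the 5 deepest wells Rims1 crossed 1 in Pde6ccpfl1 over wildtype (1.14). These are examples: ratios near 1, and those of sparse members, crossed it in other settings too. For roles and members 957 of the values under alternatives lay within the interval of the reported value or, for Nsf ratios against the floor, near it. Another 39 lay further off. A further 6 crossed 1 from a ratio at least 2-fold away, or from a role sum whose interval left out 1. Since sparse members have wide intervals, these numbers do not measure how stable the results are.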
